A study of Rattus norvegicus with 18 samples.

Results

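The comparison described here is that of kidney-operated against sham-operated rats in the soleus of the limb whose artery was ligated. It uses 9 of the 18 arrays of the series, chosen by the operation and the limb given in the sample titles. Subtotal nephrectomy (SNX), the removal of 5/6 of the renal mass, had produced chronic kidney disease in 5 male rats (12, 18, 20, 37 and 49), and 4 male rats (11, 13, 15 and 17) had a sham operation. After 8 weeks all 9 rats had the right femoral artery tied off and resected, and both soleus muscles were taken 24 hours later. Both groups therefore carried the arterial ligation, and they differed in the kidney operation. The left soleus of the same rats, whose artery was left intact, gave the other 9 arrays. Strain and age are not given in the sources used here. The source field of the labels calls every array of an SNX rat ischemic and every array of a sham rat nonischemic, for both limbs. In the design text ischemia was induced on the right side in all rats, so groups are named here by operation and side. The series title names the poor growth of new vessels after ischemia in kidney disease.

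The soleus is a postural muscle rich in slow-twitch fibres and capillaries. When its artery is closed, hypoxia stabilises the HIF transcription factors, which raise Vegfa, the main growth signal of endothelial cells. Injured muscle also switches on immediate early genes such as Fos and Egr1, recruits neutrophils and monocytes, and later rebuilds vessels, matrix and fibres. Chronic kidney disease is known for muscle wasting, endothelial dysfunction and poor capillary growth.

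Values are log2 expression levels of 1 probe set per gene, the one with the highest mean over all 18 arrays, and a difference of 1 is a doubling. Array medians lay between 3.22 and 3.37, and a level near them is dim, so a difference from such a level is an uncertain size. On the right, the arrays of 2 rats, sham 17 and SNX 49, were unlike the rest. Their mean correlations with the other 17 arrays were 0.978 and 0.980, and each was the other's closest match. They also had the highest mean of 15 macrophage markers, 9.75 and 9.07, against 5.55 to 7.34 on the other 7 right limb arrays. Cd68, a lysosomal protein and 1 of these markers, was at 7.91 and 7.28 on these 2 arrays and between 2.95 and 3.62 on the other 7. There is 1 such rat in each group, and results are therefore also given without both rats. SNX rat 20 had a slow fibre marker mean of 10.49, against 12.68 to 14.21 on the other right limb arrays, while the fast fibre mean lay between 14.43 and 14.86 on all 9. Myh7, the slow myosin heavy chain, was between 14.72 and 15.59 in the other 8 rats and at 12.66 in SNX rat 20. The tissue is whole muscle, so fewer cells of a type and less RNA per cell cannot be told apart.

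No probe set of 31042 passed an adjusted p of 0.05 for SNX against sham in the right soleus (limma, Benjamini-Hochberg over all probe sets, percent called 0). The lowest adjusted p was 0.0986, and 2872 probe sets had an unadjusted p under 0.05. With the rat as a block for its 2 limbs the count was also 0, with 3001 at an unadjusted p under 0.05. What follows therefore gives levels, differences and unadjusted counts, and no gene below is called as changed. Of 14217 genes, 580 (4.08%) were lower in SNX rats and 684 (4.81%) higher at an unadjusted p under 0.05. These counts were, without sham rat 17 and SNX rat 49, 814 (5.73%) and 737 (5.18%). The values of the 2 groups did not overlap for 104 genes lower in SNX (0.732%) and 742 genes higher in SNX (5.22%). This split depended on the scaling of the arrays: 87.7% of the genes without overlap were higher in SNX as deposited, 33.2% after each array was centred on its median, and 68.9% after quantile normalization. Among the 7977 genes whose higher group mean was at least 5, the groups did not overlap for 90 lower (1.13%) and 69 higher (0.865%). The genes with the largest differences were taken from these.

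**Figure D1:**
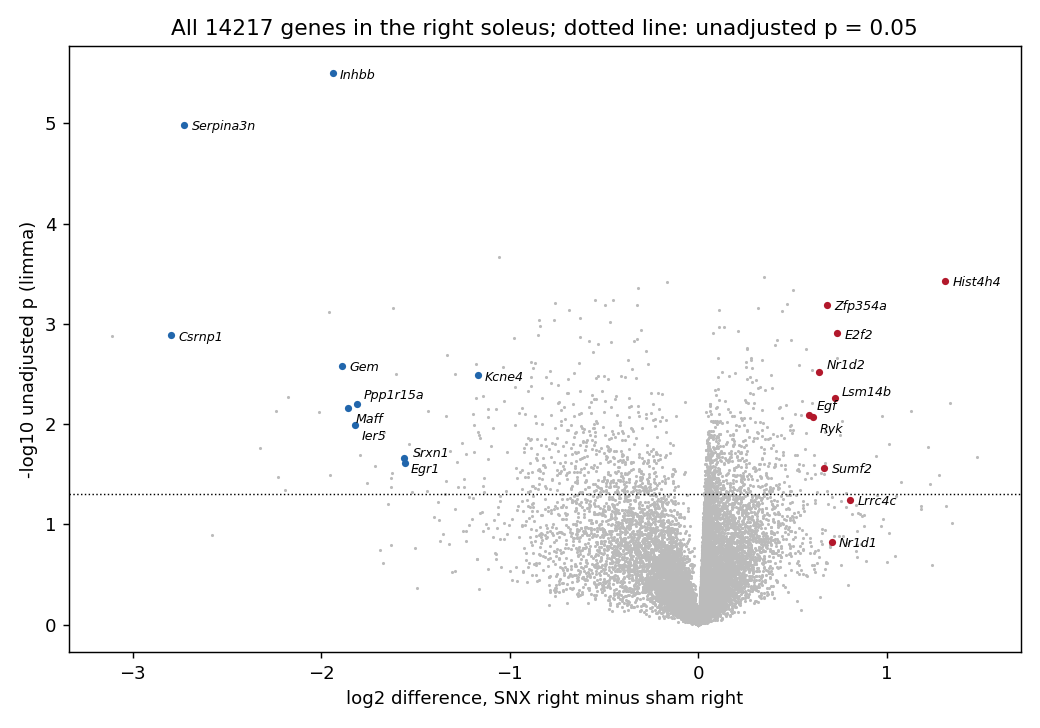
Each point is 1 of 14217 genes, with the log2 difference of SNX right minus sham right on the x axis and -log10 of the unadjusted limma p on the y axis. Blue and red points are the 10 lower and 10 higher genes with the largest differences among brighter genes without overlap; Inhbb and Serpina3n stand above all other genes.

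The lowest p-values belonged to Inhbb and Serpina3n, both lower in SNX rats. Inhbb codes for the beta B chain of activin and inhibin, ligands of the TGF-beta family. Its level in sham rats 11, 13, 15 and 17 was 5.09, 4.87, 5.46 and 5.73. SNX rats 12, 18, 20, 37 and 49 had 4.10, 2.77, 3.24, 3.33 and 3.32. Every SNX rat lay below every sham rat, and 4 of the 5 SNX values were near the array medians. The difference was -1.94 ± 0.27 (SE, limma adjusted p = 0.0986), a 3.84-fold lower level. The adjusted p ran from 0.0116 to 0.650 over 18 alternatives. The difference was -1.78 without sham rat 17 and SNX rat 49.

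Serpina3n codes for a secreted serine protease inhibitor of the acute phase. In the sham rats it was at 4.07, 6.47, 6.15 and 5.56, with rat 11 the lowest. In the SNX rats, in the order above, it was at 2.89, 2.48, 2.71, 2.64 and 3.46, which is the dim range of the arrays. The groups did not overlap, and the difference was -2.73 ± 0.42 (SE, limma adjusted p = 0.107, range 0.00214 to 0.658 over 18 alternatives). The SNX mean was 2.84 ± 0.38 (SD, n = 5) and the sham mean 5.56 ± 1.06 (SD, n = 4). Leaving out sham rat 17 and SNX rat 49 gave -2.88.

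The other 8 of the 10 largest non-overlapping lower differences belonged to Csrnp1, Gem, Maff, Ier5, Ppp1r15a, Egr1, Srxn1 and Kcne4. Csrnp1, a nuclear protein of the early response to growth and stress signals, was at 7.85, 8.93, 8.91 and 9.14 in the sham rats. In the SNX rats it was at 7.60, 5.17, 5.46, 4.70 and 6.64. SNX rat 12 came close to the sham rats and the other 4 were clearly below, with a difference of -2.79 ± 0.71 (SE, limma adjusted p = 0.498). Ppp1r15a codes for GADD34, the phosphatase subunit that restarts translation after stress. It lay between 7.90 and 8.05 in all 4 sham rats and at 7.47, 5.76, 6.72, 4.69 and 6.23 in the SNX rats, a difference of -1.81 ± 0.57. The sham rats were thus nearly equal for this gene and the SNX rats were widely spread. Maff, a small basic leucine zipper factor, had 8.10, 9.17, 8.96 and 9.52 in the sham rats and 7.20, 6.80, 6.91, 6.54 and 7.97 in the SNX rats. Its difference was -1.86 ± 0.59. Srxn1, which codes for the antioxidant enzyme sulfiredoxin, differed by -1.55 ± 0.62, and the 2 other probe sets listed for it by -0.38 and 0.03. Gem, a small GTPase that limits calcium channels, differed by -1.89 ± 0.52, Ier5 by -1.82 ± 0.62 and the potassium channel subunit gene Kcne4 by -1.17 ± 0.33. The 2 other probe sets of Ier5 differed by 0.00 and 0.02. All 10 genes were below 0 without sham rat 17 and SNX rat 49 as well, and 9 of the 10 stayed without overlap when the arrays were centred on their medians or quantile normalized.

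**Figure D2:**
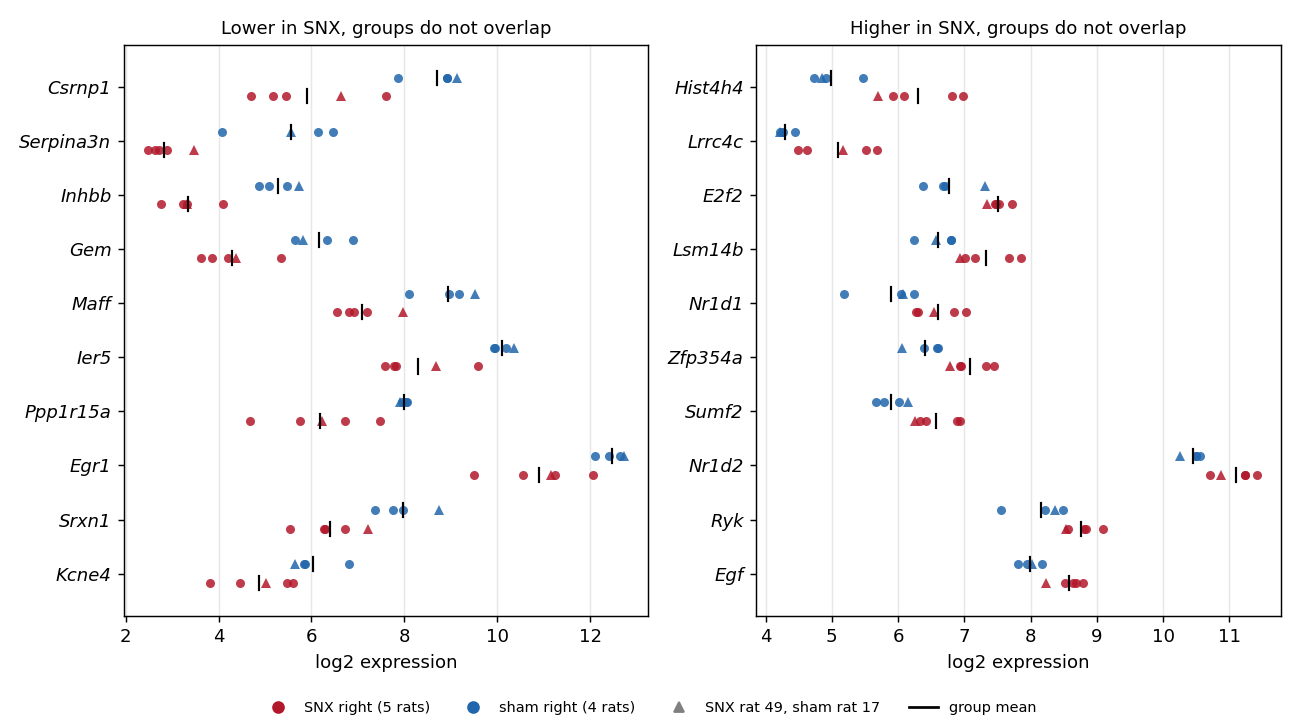
The log2 level of each of the 20 genes on the 9 right limb arrays, SNX rats in red and sham rats in blue, with triangles for SNX rat 49 and sham rat 17 and a bar at each group mean. By the choice of genes no red point crosses the blue points; Serpina3n and Inhbb lay near the dim end in SNX rats, and the differences on the right panel are smaller than those on the left.

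Promoters of some of these genes are shown because early-response genes are classically driven by short elements close to the start site. The cyclic AMP element (CRE, TGACGTCA), the AP-1 site (TGACTCA) and the CArG box, which binds serum response factor, were searched on both strands in the 250 bases before the start site of RefSeq promoters (assembly GRCr8). CRE and AP-1 matches begin with the same letters and cannot be the same match. The set of 17 genes was the 10 lower genes above and the immediate early genes with an unadjusted p under 0.05, and 14 of them had a promoter in the table. A CRE was found in 2 of the 14 and in 1.59% of all 33469 promoters, an AP-1 site in 1 and in 4.05%, and a CArG box in 2 and in 1.5%. Only Maff, Ppp1r15a, Srxn1, Egr1 and Egr2 had a match, and the other promoters of the set had none. The 120 bases before the start of 4 genes with a match follow. They are written 5′ to 3′ in the direction of the gene, with the match in capitals.
Maff (CRE), chr7:112792667-112792786, plus strand: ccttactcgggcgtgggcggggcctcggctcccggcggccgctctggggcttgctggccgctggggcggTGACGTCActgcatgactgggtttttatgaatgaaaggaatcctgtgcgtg
Ppp1r15a (CRE), chr1:105139597-105139716, minus strand: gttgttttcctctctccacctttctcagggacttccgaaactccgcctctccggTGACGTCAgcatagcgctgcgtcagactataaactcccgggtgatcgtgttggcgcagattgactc
Srxn1 (AP-1 site on the reverse strand), chr3:161064692-161064811, plus strand: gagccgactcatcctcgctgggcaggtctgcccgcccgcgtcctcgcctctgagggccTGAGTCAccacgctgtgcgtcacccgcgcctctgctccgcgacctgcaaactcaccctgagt
Egr2 (CArG box), chr20:21054442-21054561, minus strand: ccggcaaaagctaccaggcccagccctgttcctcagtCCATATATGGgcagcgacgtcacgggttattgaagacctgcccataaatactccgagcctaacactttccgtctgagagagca
The match began 51 bases before the start in Maff, 66 in Ppp1r15a, 62 in Srxn1 and 83 in Egr2. The Egr1 promoter held 2 CArG boxes within the 250 bases. A match is a run of letters and says nothing of binding in these muscles.

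Immediate early genes are transcribed within minutes of injury, growth factor or calcium signals, and most code for transcription factors. Their list had 20 measured genes, of which 17 were below 0 and 8 were lower in SNX at an unadjusted p under 0.05, against 4.08% of all genes. Its median difference was -0.88, against 0.02 over all 14217 genes. Without sham rat 17 and SNX rat 49 the count was 4 (all genes 5.73%) and the median -0.82. Egr1, a zinc finger factor induced by serum response factor, was at 12.63, 12.40, 12.10 and 12.74 in the sham rats and at 12.06, 10.55, 11.24, 9.50 and 11.16 in the SNX rats. The groups were separated by the narrow gap between SNX rat 12 and sham rat 15, and the difference was -1.56 ± 0.61 (limma adjusted p = 0.498). Egr2, a relative of Egr1, had 9.23, 8.33, 7.73 and 9.39 in the sham rats and 7.82, 5.52, 7.14, 5.21 and 6.79 in the SNX rats. Its difference was -2.17 ± 0.67, with SNX rat 12 just above sham rat 15, and another probe set listed for it was flat at 0.02. Fosb was at 7.30 and 5.84 in SNX rats 12 and 20 but at 2.65, 2.46 and 3.50 in SNX rats 18, 37 and 49, against 6.27 to 7.01 in the sham rats. The SNX group was thus split for this AP-1 subunit, and its difference of -2.33 ± 0.87 came from 3 of the 5 rats. Fos, its best-known relative, lay between 13.18 and 13.82 in the sham rats and at 13.33, 11.04, 11.34, 10.88 and 12.46 in the SNX rats. SNX rat 12 again lay among the sham rats, and the difference of -1.65 ± 0.82 had a limma adjusted p of 0.498. The growth regulator Myc differed by -1.67 ± 0.58, the AP-1 subunit Junb by -1.12 ± 0.36, the orphan receptor Nr4a1 by -1.12 ± 0.44 and Klf4 by -1.27 ± 0.57. Jun, by contrast, differed by -0.07 ± 0.26. The mean of the whole list ran from 7.48 to 8.67 in SNX rats and from 8.86 to 9.15 in sham rats, so the list means did not overlap. Rats 12 and 49, at 8.67 and 8.45, were the highest SNX rats and rats 18 and 37, at 7.68 and 7.48, the lowest.

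**Figure D3:**
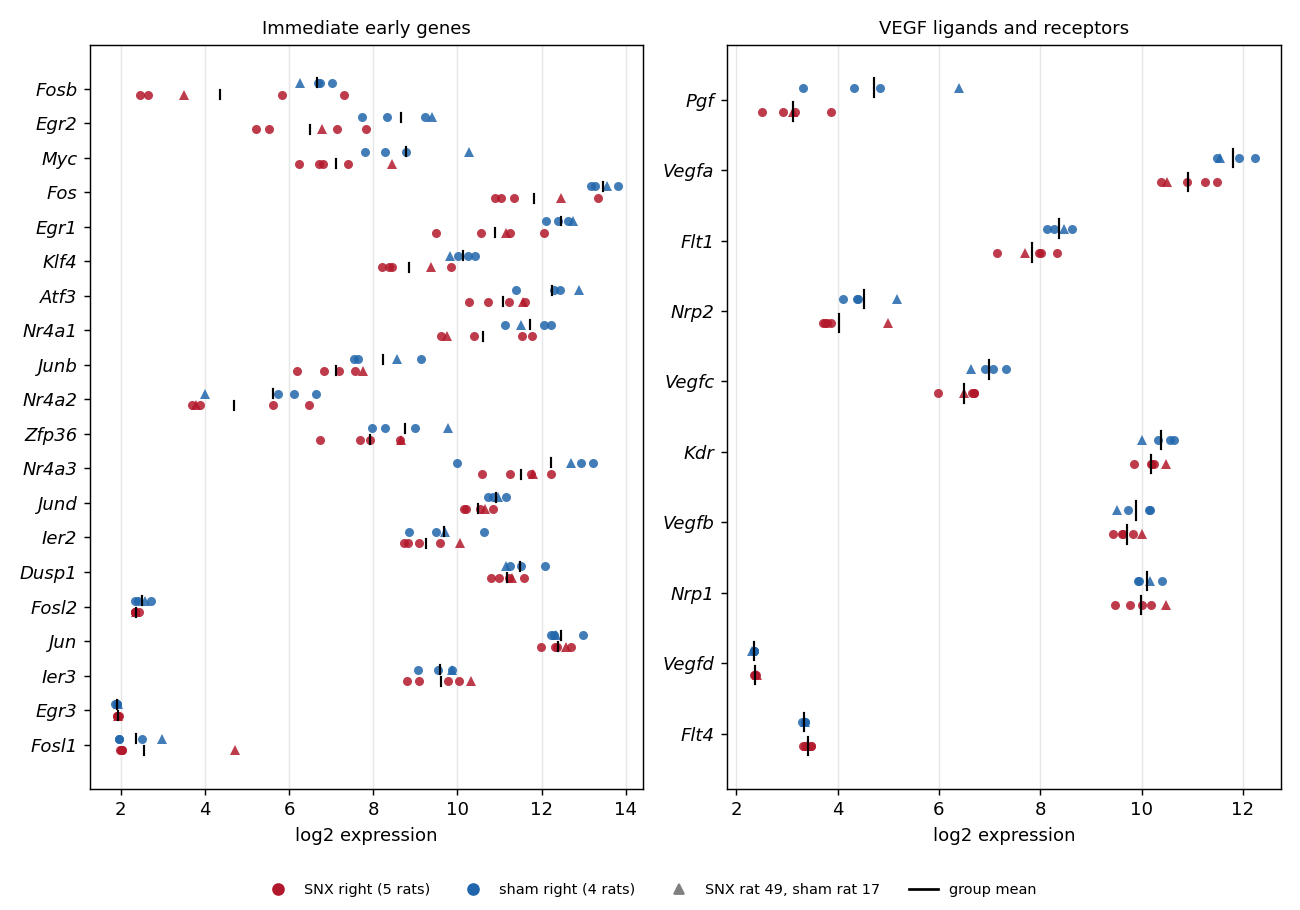
The log2 level of the 20 immediate early genes (left) and the 10 VEGF ligands and receptors (right) on each right limb array, SNX rats in red and sham rats in blue, triangles for SNX rat 49 and sham rat 17, bars at group means. Fosb and Egr2 show SNX rats spread over several log2 units, and Vegfa and Egr1 show separate groups as deposited, which for Vegfa was lost after median centring.

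VEGF proteins bind the endothelial receptors coded by Flt1 and Kdr and drive capillary growth. The list of VEGF ligands and receptors had 10 measured genes, 8 of them below 0, and 4 (Vegfa, Pgf, Vegfc and Flt1) were lower in SNX at an unadjusted p under 0.05, against 4.08% of all genes, and 0 higher, against 4.81%. Its median was -0.34, and without sham rat 17 and SNX rat 49 the count was 5 (all genes 5.73%) and the median -0.44. Among the ligands, Vegfa was at 11.50, 11.92, 12.24 and 11.54 in the sham rats and at 11.49, 10.90, 11.26, 10.38 and 10.51 in the SNX rats. The groups did not overlap as deposited or after quantile normalization, with SNX rat 12 and sham rat 11 almost meeting, and overlapped once arrays were centred on their medians. The means were 10.91 ± 0.47 (SD, n = 5) in SNX and 11.80 ± 0.35 (SD, n = 4) in sham rats, a 1.86-fold lower level. The difference was -0.89 ± 0.32 (SE, limma adjusted p = 0.498), and a second probe set of the gene differed by -0.69. Pgf, placental growth factor, was at 3.32, 4.32, 4.83 and 6.40 in the sham rats and at 3.15, 2.51, 3.87, 2.93 and 3.13 in the SNX rats. Sham rat 17 carried much of its difference of -1.60 ± 0.46, which was -1.04 without that rat and SNX rat 49, and its second probe set was flat at 0.02. Vegfc, the lymphatic growth factor, differed by -0.48 ± 0.18 and Vegfb by -0.19 ± 0.22. Among the receptors, Flt1 was between 8.13 and 8.63 in the sham rats and at 8.33, 8.01, 7.14, 7.97 and 7.69 in the SNX rats, where only SNX rat 12 lay within the sham range. Its difference was -0.55 ± 0.19 (limma adjusted p = 0.498), and its 2 other probe sets differed by -0.23 and 0.05. Kdr, the main signalling receptor, overlapped between groups with -0.19 ± 0.21. Its difference was -0.38 without sham rat 17 and SNX rat 49, and 0.06 on a second probe set with all rats. The co-receptors Nrp1 and Nrp2 differed by -0.13 ± 0.20 and -0.49 ± 0.27. The mean of the list was 6.71 to 6.96 in SNX and 7.17 to 7.36 in sham rats.

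Hif1a, the inducible HIF subunit, was at 11.29, 11.46, 11.36 and 11.78 in the sham rats and at 10.47, 10.76, 10.82, 11.09 and 11.72 in the SNX rats. Only SNX rat 49 lay within the sham range, and the difference was -0.50 ± 0.25 (limma adjusted p = 0.498), and -0.58 without sham rat 17 and SNX rat 49. Epas1, which codes for HIF-2 alpha, differed by -0.17 ± 0.13. Of the 8 HIF subunits and oxygen sensors 0 had an unadjusted p under 0.05 with all rats (limma), and 1, Hif1a, was lower at that p without those 2 rats. Of 20 hypoxia target genes 10 were below 0, as were 5709 of 14217 genes, with a list median of -0.06. Among them 1, the stress gene Ndrg1, was lower at an unadjusted p under 0.05. Of all genes, 4.08% were lower and 4.81% higher at that p with all rats. Without those 2 rats 5.73% were lower. Ndrg1 was at 8.12, 9.34, 8.44 and 10.34 in the sham rats and between 7.87 and 8.36 in the SNX rats. Its difference was -0.85 ± 0.36, -0.45 without sham rat 17 and SNX rat 49, and -0.095 on a second probe set. The glucose transporter gene Slc2a1 differed by -0.63 ± 0.60 and the mitophagy gene Bnip3 by 0.04 ± 0.15. Hmox1, the heme-degrading enzyme, differed by -1.23 ± 0.74, and its 2 highest levels, 10.66 and 9.48, were those of sham rat 17 and SNX rat 49.

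All 13 endothelial markers were below 0, as were 5709 of 14217 genes, and 4 were lower in SNX at an unadjusted p under 0.05, against 4.08% of all genes, with a median of -0.31. Leaving out sham rat 17 and SNX rat 49 gave a count of 5 (all genes 5.73%) and the median -0.48. Pecam1, the adhesion protein CD31 that lines endothelial junctions, was at 9.30, 9.87, 9.33 and 9.36 in the sham rats and at 8.90, 9.13, 9.05, 8.81 and 9.08 in the SNX rats. Every SNX rat lay below every sham rat, with a difference of -0.47 ± 0.11 (limma adjusted p = 0.498). Cldn5, the endothelial tight junction claudin, was at 8.08 to 8.67 in sham and 7.03 to 8.05 in SNX rats, a difference of -0.78 ± 0.26. Tie1 and Esam differed by -0.57 ± 0.19 and -0.54 ± 0.18, also with no overlap, which for Tie1 was lost after quantile normalization. Vwf, Emcn and the endothelial transcription factor Sox17 overlapped, with -0.40 ± 0.32, -0.26 ± 0.17 and -0.46 ± 0.23. The mean of the endothelial markers was 7.25 to 7.62 in SNX rats and 7.77 to 8.09 in sham rats 11, 13 and 15, and 7.48 in sham rat 17. The 12 pericyte and smooth muscle markers had 0 at an unadjusted p under 0.05 and a median of -0.15, and without sham rat 17 and SNX rat 49 1 was lower and the median was -0.29. The part of the endothelial share of the tissue in the VEGF receptor values was not tested.

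Of the other vessel regulators, Angpt2, which destabilises vessels for sprouting, differed by -0.53 ± 0.24. The vasodilator peptide gene Adm differed by -1.14 ± 0.49, and -0.86 without sham rat 17 and SNX rat 49. Apln and Nos3, which codes for endothelial nitric oxide synthase, overlapped widely, with -0.45 ± 0.58 and -0.20 ± 0.36. Of 10 nitric oxide and arginine genes 0 had an unadjusted p under 0.05 (limma), and 1 was lower at that p without sham rat 17 and SNX rat 49. In the list of 11 Notch and ephrin genes, 2 were lower in SNX at an unadjusted p under 0.05, and 3 without the 2 rats. For both lists, the share of all genes lower at that p was 4.08%, and 5.73% without the 2 rats. Efna1, a membrane-bound ephrin ligand, was at 8.41, 8.36, 8.05 and 7.80 in the sham rats and at 7.02, 7.19, 6.71, 7.28 and 7.39 in the SNX rats, without overlap. Its difference was -1.04 ± 0.29 (limma adjusted p = 0.498) and another probe set had -0.64. Ephb4, the venous ephrin receptor, differed by -0.59 ± 0.26.

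Of 14 coagulation and fibrinolysis genes 13 were below 0 and 7 had an unadjusted p under 0.05 (Thbd, Plat, Fgl2, Procr, Plau, F3 and Tfpi2), against 4.08% of all genes, with a median of -0.65. Without sham rat 17 and SNX rat 49 the count was 8 (all genes 5.73%) and the median -0.61. Thbd, thrombomodulin, which turns thrombin into an activator of protein C, was at 7.75, 8.43, 8.07 and 8.25 in the sham rats. In the SNX rats it was at 7.52, 7.39, 6.97, 7.31 and 7.01, all below the sham rats, and the difference was -0.89 ± 0.26 (limma adjusted p = 0.498). Its 2 other probe sets differed by -0.64 and 0.01. Plat, tissue plasminogen activator, was at 8.98 to 9.36 in sham and 7.95 to 8.96 in SNX rats, a difference of -0.69 ± 0.20. Procr, the endothelial protein C receptor, differed by -0.74 ± 0.23 and F3, tissue factor, which starts clotting, by -0.53 ± 0.20. The members thus include anticoagulant, fibrinolytic and procoagulant genes.

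The counts of immune genes lower in SNX at an unadjusted p under 0.05 stand against 4.08% of all genes (5.73% without sham rat 17 and SNX rat 49). All 15 macrophage markers were below 0, 1 of them (the scavenger receptor Cd163, -1.16 ± 0.41) at an unadjusted p under 0.05, with a median of -0.68 and -0.49 without sham rat 17 and SNX rat 49. Their mean was 5.55 to 9.07 in SNX and 6.66 to 9.75 in sham rats, so the groups overlapped. All 9 MHC class II presentation genes were below 0, and 6 were lower at an unadjusted p under 0.05, with a median of -0.81. Without the same 2 rats the count was 5 and the median -0.70. Cd74, the invariant chain, was at 10.36, 11.20, 10.56 and 11.53 in the sham rats and at 10.14, 10.35, 9.98, 10.04 and 10.80 in the SNX rats. Only SNX rat 49 lay within the sham range, and the difference was -0.65 ± 0.27. RT1-Da, a class II alpha chain, differed by -0.85 ± 0.31. RT1-Ba differed by -0.94 ± 0.30 on its brightest probe set and by 0.0035 to 0.79 on its 3 others, and RT1-Bb by -1.16 ± 0.41 and 1.40, so the direction of both depends on the probe set. RT1 genes are a family of similar and variable sequences, and their probe sets may read more than 1 member. Whether the lower class II levels come with fewer macrophages was not tested.

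In the list of 15 complement and acute phase genes 7 were lower in SNX, Serpina3n among them, with a median of -0.50, and 4 without sham rat 17 and SNX rat 49. C1qb, a chain of the first complement component, differed by -0.97 ± 0.33, C1qa by -0.73 ± 0.29 and C1s by -0.62 ± 0.24. Of 18 interferon response genes 5 were lower, with a median of -0.41, and 4 with -0.29 without the 2 rats. The guanylate-binding protein gene Gbp2 was at 6.44, 6.57, 6.25 and 7.41 in the sham rats and between 5.78 and 6.25 in the SNX rats, with a difference of -0.65 ± 0.23. The antiviral gene Mx1 differed by -0.66 ± 0.21 in all rats and by -0.37 without the 2 rats, and Isg15 by -0.75 ± 0.27 and -0.38. Of 22 chemokine and receptor genes 5 were lower at an unadjusted p under 0.05, with a median of -0.10, and 6 without the 2 rats, where the median was 0.01. The monocyte attractant Ccl2 was at 10.93, 10.57, 9.57 and 12.76 in the sham rats and at 8.42, 9.26, 7.55, 9.44 and 11.55 in the SNX rats. In the SNX group 4 of 5 rats lay below all sham rats, and SNX rat 49 lay second highest of all 9. The difference was -1.71 ± 0.69 (limma adjusted p = 0.498), and -1.69 without the 2 rats. Ccl7, a related attractant, was at 7.77, 7.77, 6.72 and 11.21 in the sham rats and at 4.39, 6.00, 4.25, 6.39 and 9.86 in the SNX rats, with the same 2 rats highest. Its difference was -2.19. The scavenging receptor gene Ackr3 differed by -0.73 ± 0.24. Of 24 cytokine and receptor genes 3 were lower, with 7 without the 2 rats. The 3 were the receptors Tnfrsf1a (-0.61 ± 0.21) and Il1r1 (-0.86 ± 0.33) and the cytokine Il6. The 2 other probe sets of Il1r1 were flat at 0.017 and 0.034. Il6 was dim in SNX rats, at 2.40 to 2.62, and at 2.95, 3.34, 2.76 and 6.79 in the sham rats, so its difference of -1.48 ± 0.57 was -0.57 without sham rat 17 and SNX rat 49. Neutrophil, T and NK cell, and B cell markers had medians of -0.08, 0.02 and 0.03 (0.01, 0.02 and 0.03 without the 2 rats), with list means between 2.32 and 4.50 on the 9 arrays, against array medians of 3.22 to 3.37.

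**Figure D4:**
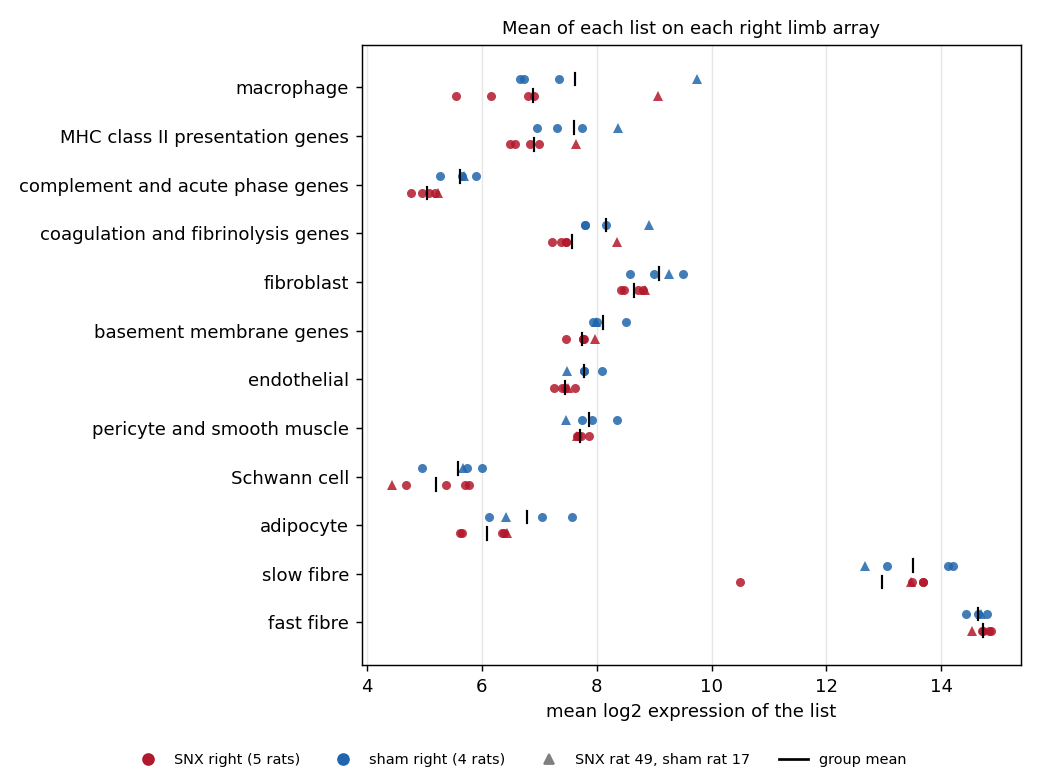
Mean log2 level of each of 12 gene lists on the 9 right limb arrays, SNX rats in red and sham rats in blue, triangles for SNX rat 49 and sham rat 17, bars at group means. The triangles are highest for the macrophage list in each group, and SNX rat 20 is alone at 10.49 for the slow fibre list.

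Matrix lists had 3 to 7 members that were lower in SNX at an unadjusted p under 0.05, against 4.08% of all genes. That share was 5.73% without sham rat 17 and SNX rat 49. Of 11 fibroblast markers 9 were below 0 and 7 lower at an unadjusted p under 0.05 (Mfap5, Pi16, Thy1, Dcn, Pdgfra, Fap and Dpt), with a median of -0.49. Without sham rat 17 and SNX rat 49 the count was 3 and the median -0.47. Mfap5, a microfibril glycoprotein, was at 10.33, 11.21, 10.36 and 10.44 in the sham rats and at 10.12, 9.53, 9.18, 10.28 and 10.24 in the SNX rats. The groups did not overlap but were separated by a narrow gap, and the difference was -0.72 ± 0.27. Of the 2 fibroblast markers above 0, 1 was higher in SNX without overlap. Of all genes, 0.732% were lower and 5.22% higher in SNX without overlap. The collagen-binding proteoglycan gene Dcn differed by -0.49 ± 0.19. Of 19 interstitial collagen and fibrous matrix genes 3 were lower (Thbs2, Ccn2 and Col14a1), with a median of -0.32, and 1 with -0.39 without the same 2 rats. Ccn2, connective tissue growth factor, was at 12.33 to 13.47 in sham and 11.07 to 12.47 in SNX rats, a difference of -1.19 ± 0.45. The fibrillar collagens Col1a1 and Col3a1 overlapped, with 0.18 ± 0.59 and -0.46 ± 0.38. All 14 basement membrane genes were below 0 and 5 were lower (Lamb1, Nid1, Lamc1, Hspg2 and Lama4), with a median of -0.36, and 7 with -0.48 without the 2 rats. Lamb1, a laminin chain, differed by -0.55 ± 0.19.

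Hyaluronan is a glycosaminoglycan of swollen and injured matrix. Tnfaip6, whose protein binds it and is induced by inflammatory signals, was at 6.55, 7.25, 7.06 and 8.45 in the sham rats and at 6.47, 4.66, 4.44, 4.52 and 6.75 in the SNX rats. SNX rats 18, 20 and 37 lay far below the lowest sham rat, and rats 12 and 49 lay at its level. The difference was -1.96 ± 0.47 (limma adjusted p = 0.498), and another probe set listed for the gene was flat at 0.04. Has2, a hyaluronan synthase, was dim in all SNX rats, at 2.53 to 2.58, and at 2.89, 3.46, 3.77 and 2.60 in the sham rats. Its difference was -0.63 ± 0.16. In all, 3 of the 13 proteoglycan and hyaluronan genes were lower and 1, the dim Hapln1, higher at an unadjusted p under 0.05. The shares of all genes were 4.08% lower and 4.81% higher. The aggrecan-cleaving protease gene Adamts4 differed by -1.62 ± 0.38 (limma adjusted p = 0.498) and the metalloproteinase inhibitor gene Reck by -0.57 ± 0.17.

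In the list of 18 TGF-beta and activin genes, members stood on both sides, with a median of -0.09. At an unadjusted p under 0.05, 4 were lower and 2 higher in SNX, against 4.08% and 4.81% of all genes. Without sham rat 17 and SNX rat 49 these counts were 3 and 1, against 5.73% and 5.18% of all genes. Below 0 at an unadjusted p under 0.05 were Inhbb, Inhba (-1.23 ± 0.47), Tgfb1 and the inhibitory Smad7 (-0.53 ± 0.22). Inhba codes for the beta A chain of activin, and its second probe set had -0.82. Tgfb1 was below the array medians in all rats but sham rat 17, at 3.62, and its difference was -0.45 with all rats and -0.19 without sham rat 17 and SNX rat 49. Above 0 were Tgfb2 (0.50 ± 0.17) and the activin receptor gene Acvr2b (0.67 ± 0.24). Tgfb2 was at 7.49, 7.46, 7.60 and 6.64 in the sham rats and at 7.47, 7.73, 8.16, 7.87 and 7.76 in the SNX rats. Its difference was 0.29 without sham rat 17 and SNX rat 49, and a second probe set had 0.48 with all rats. Acvr2b, through which activins and myostatin signal, was at 5.89, 6.42, 6.46 and 6.09 in the sham rats and at 7.21, 6.96, 7.08, 7.21 and 5.97 in the SNX rats. In the SNX group 4 of 5 rats lay above all sham rats and SNX rat 49 near their lowest. Myostatin itself (Mstn) was dim, with 0.10 ± 0.16.

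The higher genes had mostly smaller differences than the lower ones. The 10 largest among brighter genes without overlap were Hist4h4, Lrrc4c, E2f2, Lsm14b, Nr1d1, Zfp354a, Sumf2, Nr1d2, Ryk and Egf, from 1.31 down to 0.59. All 10 stayed without overlap after quantile normalization and 7 after median centring, which ended it for E2f2, Ryk and Egf. Hist4h4, listed as a gene of histone H4, was at 4.91, 4.73, 5.47 and 4.86 in the sham rats and at 6.09, 6.98, 6.81, 5.93 and 5.69 in the SNX rats. Its difference was 1.31 ± 0.29 (limma adjusted p = 0.498). Histone H4 genes are near-identical copies, so which of them the probe set reads is uncertain. E2f2, a cell cycle transcription factor, was at 6.37, 6.69, 6.70 and 7.31 in the sham rats and between 7.34 and 7.73 in the SNX rats, a difference of 0.74 ± 0.19. Egf, epidermal growth factor, was at 7.81 to 8.17 in sham and 8.23 to 8.79 in SNX rats, a difference of 0.59 ± 0.19. The Wnt receptor gene Ryk differed by 0.61 ± 0.20, and by 0.30 on a second probe set. Sumf2 differed by 0.67 ± 0.27, and by 0.15 on a second probe set.

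Nr1d1 and Nr1d2 code for the REV-ERB receptors, repressors of the core clock that oppose Bmal1. Nr1d2 was at 10.50, 10.55, 10.50 and 10.26 in the sham rats and at 10.71, 11.24, 11.41, 11.24 and 10.88 in the SNX rats, a difference of 0.64 ± 0.18 (limma adjusted p = 0.498). Its 2 other probe sets differed by 0.17 and 0.75. Nr1d1 was at 6.25, 5.19, 6.05 and 6.08 in the sham rats and at 6.27, 6.85, 6.31, 7.02 and 6.54 in the SNX rats. The gap between the groups was small and the difference of 0.71 ± 0.47 had a limma adjusted p of 0.499. Of 15 clock genes 1 was higher (Nr1d2) and 1 lower (Cry1, a repressor, -0.37 ± 0.16) at an unadjusted p under 0.05. Without sham rat 17 and SNX rat 49, 2 were higher and 0 lower. The shares of all genes were 4.81% higher and 4.08% lower with all rats, and 5.18% and 5.73% without those 2 rats. Bmal1 differed by -0.60 ± 0.42, with SNX rat 12 highest at 6.70 and SNX rat 37 lowest at 4.52. The period gene Per3 was at 3.64, 3.50, 3.28 and 3.23 in the sham rats and at 2.58, 4.61, 5.06, 5.33 and 5.39 in the SNX rats, a difference of 1.18 ± 0.59. Here SNX rat 12 lay below all sham rats and the other 4 above them. The labels give no time of day at which muscle was taken.

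Of 16 branched-chain amino acid catabolism genes 13 were above 0 and 3 were higher at an unadjusted p under 0.05, against 4.81% of all genes, with a median of 0.14, and 0.08 without sham rat 17 and SNX rat 49. The 3 were Ivd, Bcat2 and Dbt. Ivd, a mitochondrial dehydrogenase of leucine breakdown, was at 10.68, 10.41, 10.41 and 10.07 in the sham rats and at 11.02, 11.23, 10.65, 11.16 and 10.92 in the SNX rats. Only SNX rat 20 lay within the sham range, just below sham rat 11, and the difference was 0.60 ± 0.17. Bcat2, the mitochondrial transaminase that starts this pathway in muscle, differed by 0.94 ± 0.37. Of 17 proteasome subunits 15 were above 0 and 3 were higher (Psmd1, Psmc2 and Psmd12), against 8508 of 14217 and 4.81% of all genes. Their median of 0.04 was close to that of all genes, 0.02, and the count was 5 and the median 0.11 without sham rat 17 and SNX rat 49. Psmc2 differed by 0.14 ± 0.05. Of 15 muscle protein breakdown genes 2 were higher, Foxo4 (0.61 ± 0.24) and the muscle calpain gene Capn3 (0.24 ± 0.10), and without sham rat 17 and SNX rat 49 3 were higher and 1 lower. The ubiquitin ligases of muscle wasting, Trim63 and Fbxo32, differed by -0.26 ± 0.29 and -0.01 ± 0.37. Myod1, the master factor of satellite cell commitment, was at 9.33, 8.46, 9.70 and 9.11 in the sham rats and at 10.26, 10.93, 10.80, 9.37 and 10.03 in the SNX rats. In the SNX group 4 of 5 rats lay above all sham rats, and the difference was 1.13 ± 0.37 (limma adjusted p = 0.498). Myog, which acts after it, differed by 0.05 ± 0.59. Ankrd1, a stretch and injury protein of the sarcomere, ranged from 10.01 to 13.48 with the groups mixed, and differed by -0.03 ± 0.97. With all rats, 0 genes of the glycolysis, the TCA cycle and oxidative phosphorylation, and the fatty acid lists had an unadjusted p under 0.05, and their medians were 0.07, 0.01 and 0.00. Without sham rat 17 and SNX rat 49, the glycolysis list had 2 lower and 1 higher and a median of 0.15, the fatty acid list 1 higher and -0.08, and the TCA list 0 and -0.02. For all counts of this paragraph without the 2 rats, the shares of all genes were 5.73% lower and 5.18% higher. The 10 slow fibre markers were all below 0 with a median of -0.52, -0.90 without the 2 rats, and none reached an unadjusted p of 0.05. Both values include SNX rat 20, with the lowest mean at 10.49. The second leaves out sham rat 17, the lowest sham rat at 12.68. The list means of the other SNX rats, 13.47 to 13.69, lay within the sham range of 12.68 to 14.21, so the lower direction rests on SNX rat 20.

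At an unadjusted p under 0.05, 2 of 17 IGF and insulin genes (median -0.17) and 2 of 14 glucocorticoid response genes (median -0.18) were lower, and of 19 NRF2 and antioxidant genes 2 were lower and 1 higher (median -0.17). The shares of all genes were 4.08% lower and 4.81% higher. Without sham rat 17 and SNX rat 49 the insulin count stayed at 2, the glucocorticoid list had 1 lower and 1 higher, and the NRF2 list 2 lower and 2 higher with a median of -0.08. The shares of all genes without those 2 rats were 5.73% lower and 5.18% higher. Irs2, an adaptor of the insulin receptor, was at 8.96, 10.64, 10.56 and 10.47 in the sham rats and at 9.85, 8.32, 8.29, 7.28 and 8.26 in the SNX rats. Sham rat 11 lay below SNX rat 12, and the difference was -1.76 ± 0.77. Hsd11b1, which regenerates active glucocorticoid, differed by -1.18 ± 0.32 and Sgk1, a kinase that glucocorticoids induce, by -0.86 ± 0.34. The zinc-binding metallothionein Mt2A differed by -1.63 ± 0.73, with its highest levels, 11.47 and 10.61, in sham rat 17 and SNX rat 49. Nfe2l2, which codes for the antioxidant regulator NRF2, was between 10.75 and 11.23 in sham and 10.35 and 10.85 in SNX rats, a difference of -0.37 ± 0.11, and Keap1, its inhibitor, differed by 0.29 ± 0.12 and by 0.029 on a second probe set.

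The left soleus of the same rats had no ligation, and gives the difference of SNX from sham without it. There 581 genes (4.09%) were lower and 462 (3.25%) higher at an unadjusted p under 0.05. Both limbs come from the same 9 rats, so their differences are set side by side and not counted as separate support. Of the 10 lower genes 9 were below 0 in the left soleus too, and all 10 higher genes were above 0. Maff differed by -1.86 on the right and -1.69 on the left, Srxn1 by -1.55 and -1.23, Csrnp1 by -2.79 and -1.55, and Vegfa by -0.89 and -0.55. Nr1d1 differed by 0.71 on the right and 1.96 on the left. On the left 6 of the 15 clock genes were higher and 4 lower at an unadjusted p under 0.05, against 1 and 1 on the right. Of the 20 immediate early genes 8 were lower on the right and 3 on the left at an unadjusted p under 0.05, with 1 higher on the left. The shares of all genes lower were 4.08% and 4.09%. For 1 of the 20 the right minus the left difference had an unadjusted p under 0.05 (limma). The median of the list was -0.88 on the right and -0.18 on the left. That of the slow fibre markers was -0.52 and 0.22, and that of the collagen list -0.32 and -0.90. MHC class II genes had -0.81 and -1.09 and endothelial markers -0.31 and -0.27.

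**Figure D5:**
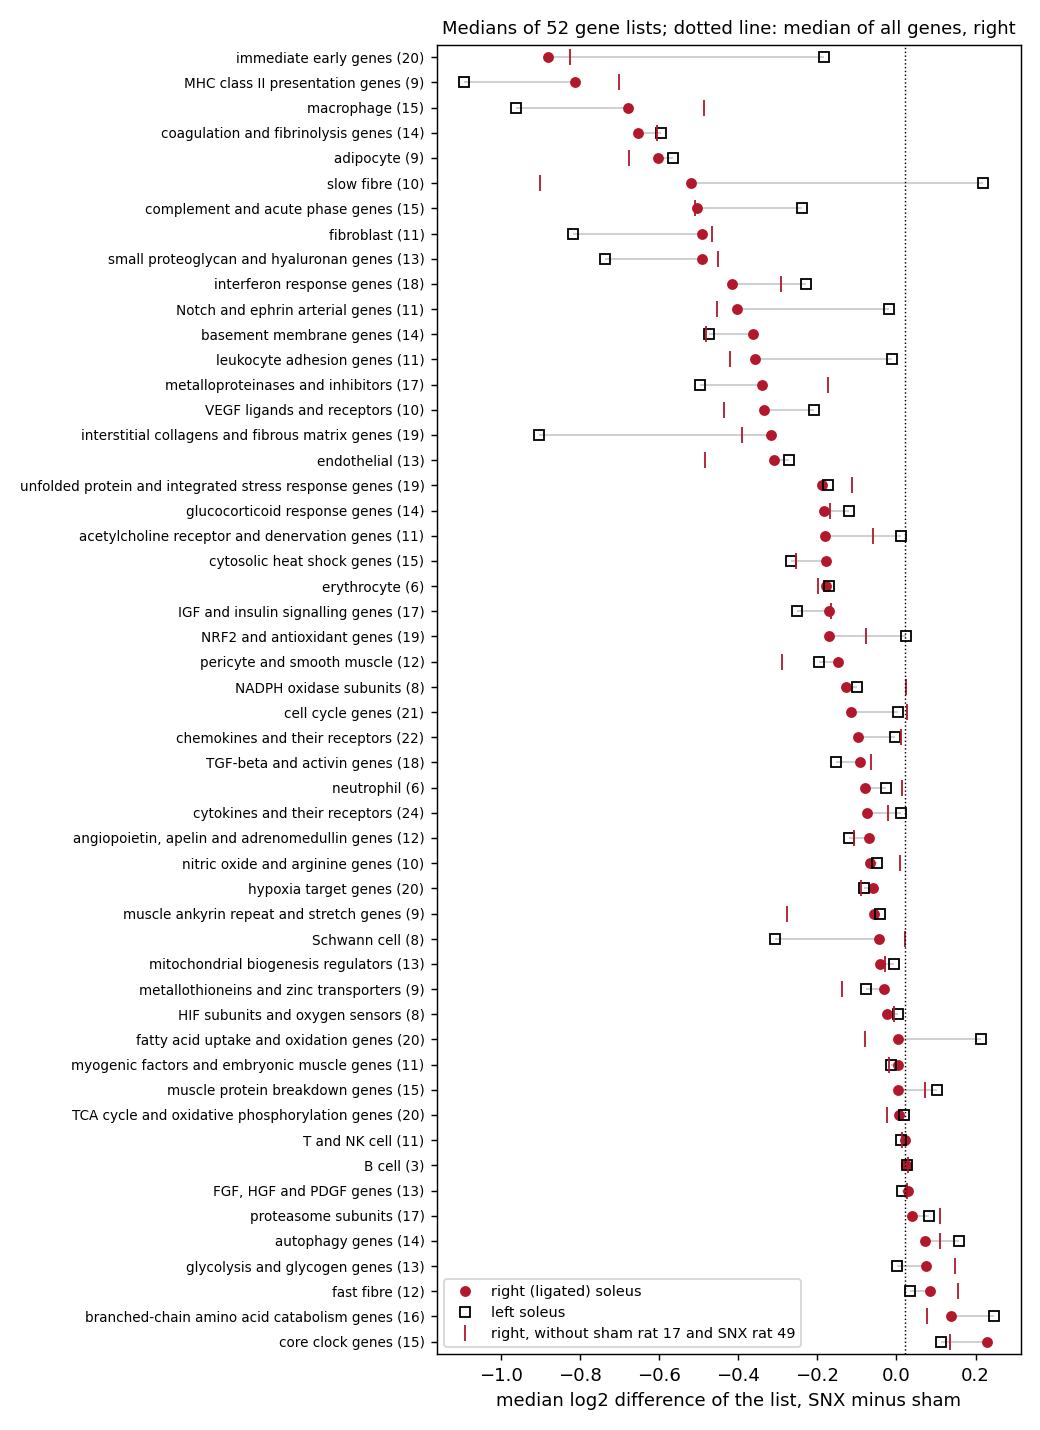
Median log2 difference, SNX minus sham, of each of the 52 gene lists (number of measured genes in parentheses), in the right soleus (red circles), the left soleus (open squares) and the right soleus without sham rat 17 and SNX rat 49 (red bars). The dotted line is the median of all genes on the right, 0.02; the immediate early list has the lowest value on the right, -0.88, and lies at -0.18 on the left.

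Whether a difference was larger in the ligated limb was tested as the right minus the left difference. No probe set of 31042 passed an adjusted p of 0.05 (limma, percent called 0; lowest adjusted p = 0.9999), with 437 at an unadjusted p under 0.05, and with the rat as a block the counts were 0 and 953. Among genes, 219 of 14217 (1.54%) had an unadjusted p under 0.05, and 10 of the 92 genes chosen for naming did. Most of the 92 were chosen by their right limb difference, which is part of this contrast. Their count can therefore not be set against the share of all genes. For Serpina3n the right minus left difference was -2.12 ± 0.59 and for Inhbb -1.27 ± 0.38 (limma adjusted p = 0.9999 for both). Egr1 was lower in SNX by 1.56 log2 units on the right and higher by 0.47 on the left, with -2.03 ± 0.86 between them (limma adjusted p = 0.9999). Efna1 (-1.03 ± 0.41), Tnfaip6 (-1.68 ± 0.66), Has2 (-0.63 ± 0.23), Nfe2l2 (-0.44 ± 0.16) and Mx1 (-0.70 ± 0.30) were also more negative on the right. Nid1 (0.48 ± 0.18) and Reck (0.69 ± 0.24) were more negative on the left. None of these 10 passed the adjustment, so no difference is shown to be particular to the ligated limb.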

How the data were processed

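RNA of whole soleus was labelled with biotin from 2 micrograms per array and hybridised to Affymetrix rat arrays, per the labels' protocols. The authors deposited a single table of log2 values that were already normalized. Per the submitters' processing notes, the tools were RMA, GCRMA and Partek; their roles and versions are not stated, so which of them made the values is unknown here. The first 2 treat background differently, which affects dim probe sets most. Arrays give no read depth, and precision is limited by the 5 and 4 rats per group, taken as separate animals from the numbers in the titles.

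The 57 control probe sets were left out of 31099. Symbols came from the platform annotation and were updated through Entrez IDs to RefSeq (GRCr8), which matched 20758 of the 20826 probe sets with 1 symbol; 436 list several symbols and 9780 none, and none of these was named. One probe set, that with the highest mean of 18 arrays, stood for each of 14217 genes. limma 3.58.1 (lmFit, eBayes; R 4.3.3) fitted 4 group means to all 18 arrays, with 14 residual degrees of freedom, and the right limb contrast and the difference between limbs were tested two-sided, with Benjamini-Hochberg adjustment over 31042 probe sets and a threshold of 0.05. Values after ± are standard errors of that fit unless SD is written. The median standard error of a right limb difference was 0.0893.

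The 2 limbs of a rat share an animal, so a random block for the rat was an alternative (duplicateCorrelation, with a consensus of 0.297). Deviations of the 2 limbs from their group means correlated between -0.001 and 0.534 over the 9 rats, and at over 0.1 in all but rats 15 and 49.

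Members, lists and tests were chosen with earlier results of these data known. Genes were named by rule: the 10 largest differences each way among genes whose groups did not overlap and whose higher mean was at least 5, up to 2 members each way of each of 52 lists with an unadjusted p under 0.05, and 12 fixed genes. Other list members were named after their values were seen. Lists are described by counts and medians, with no set test. Promoter sequences are from RefSeq (GRCr8). Alternatives were median centring, quantile normalization, leaving out dim probe sets, an intensity trend with robust variance, array weights, right limb arrays only, the mean of a gene's probe sets, and leaving out rats.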

Additional observations from a re-analysis of the deposited data

Results flagged for a closer look

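Among the 92 genes chosen for naming, 184 groups of 4 or 5 right limb values were searched for a rat far from the rest of its group, and 9 were found. Chance gives such a rat in about 1 of 20 groups. In the sham group, rat 17 was low for Tgfb2 (6.64, others 7.46 to 7.60) and high for Psmd1 (10.19, others 9.75 to 9.78), rat 11 was low for Irs2 (8.96, others 10.47 to 10.64), and rat 13 was high for Pecam1 (9.87, others 9.30 to 9.36) and Mfap5 (11.21, others 10.33 to 10.44). In the SNX group, rat 49 was low for Acvr2b (5.97, others 6.96 to 7.21), and rat 12 was high for Ackr3 (10.54, others 9.76 to 9.91) and Cry1 (8.34, others 7.80 to 7.91). SNX rat 20 was low for Thbs2 (2.10, others 2.16 to 2.18), all of them below the array medians.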

How the results depend on the processing

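The count for SNX minus sham in the right soleus, 0 probe sets, was 2 with dim probe sets left out (Inhbb and Serpina3n), 1 with an intensity trend and robust variance (Inhbb), 2 with array quality weights (Inhbb and a probe set without a single symbol) and 1 with the mean of all probe sets of a gene (Inhbb). Leaving out each rat with both limbs gave 0 to 10, with 10 without sham rat 11, 5 without SNX rat 12 and 0 otherwise. With the replicate block, the rat, it was 0, and the block changed no call of a named gene. For SNX minus sham in the right minus the left soleus it was 0 in every setting run. Counts chosen after seeing the data moved more. For genes whose right limb values do not overlap, higher in SNX, 742 became 62 after centring, 246 after quantile normalization, 1390 without sham rat 17 and SNX rat 49, and 787 to 1871 without single rats. For genes whose right limb values do not overlap, lower in SNX, 104 became 677 without those 2 rats and 121 to 428 without single rats; fewer rats make non-overlap easier. For genes with an unadjusted p under 0.05, higher in SNX, 684 became 343 after centring and 396 to 1258 without single rats, and for those lower in SNX 580 became 337 to 1071.

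The values of the 92 genes chosen by rule were compared under the alternatives. Of these values 1634 kept direction and side of the threshold, 8 of Inhbb and Serpina3n passed it, and 8 of RT1-Bb, Ankrd1 and Apln turned sign. A probe set of Per3, a gene named outside that rule, passed the threshold without SNX rat 12. RT1-Bb was 0.12 with the mean of its probe sets. Ankrd1 was 0.17 with array weights, 0.022 with the mean of its probe sets and -0.69 to 0.51 without single rats. Apln was -0.77 to 0.022 without single rats. The causes were not tested. Dim levels limit the sizes for Inhbb, Serpina3n, Pgf, Il6, Has2 and Per3.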
